A study of Mus musculus with 4 samples.

Results

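The major histocompatibility complex (MHC) of the mouse, H-2, is the gene-dense stretch of chromosome 17 that carries the class I, class II and class III genes. Its accessible chromatin was described here as the regions of the deposited region list that overlapped chr17:33800000-38500000 of build GRCm38 (mm10). This rule selected 389 of the 91266 regions of the series. The remaining 3761 regions of chromosome 17 served for comparison. The regions came from ATAC-seq, in which a transposase cuts open chromatin, of splenic natural killer (NK) cells from wild-type (WT) C57BL/6 mice. The cells had been cultured for 72 h in a high dose (HD) or a low dose (LD) of the cytokine IL-15, with 2 replicates per dose and about 75000 cells per replicate. The doses are not given in the labels, and there was no group without IL-15. Whether the replicates came from separate mice is not stated.

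The tables hold positions and widths only. They hold no value per sample, so no replicate error could be computed, sequencing depth is unknown and the doses could not be tested against each other. The authors' own lists of differentially accessible regions are named up and down, and which dose was the reference is not stated. The names are used here as deposited. Promoter windows (the 250 bases before and the 50 bases after an annotated start site) of 7 of 7 NK cell marker genes with such a window, Ncr1 and Klrb1c among them, were overlapped by a region. The same held for 0 of 2 B cell, 0 of 3 T cell and 1 of 2 myeloid marker genes, the last being Itgam, an integrin gene that NK cells also use.

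Class I molecules present peptides from inside the cell. The classical molecules H2-K1 and H2-D1 are ligands of the inhibitory Ly49 receptors by which NK cells recognise healthy cells, and the non-classical H2-T23 (Qa-1) is a ligand of the CD94-NKG2 receptors. Class II molecules present peptides taken up from outside and are known chiefly from B cells, dendritic cells and macrophages, while the class III stretch holds complement, heat shock and tumour necrosis factor genes. The class I and class II promoters share a module known as X box and Y box, to which class I promoters add sites for NF-kB and interferon regulatory factors.

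The bases before the start sites of 8 promoters that an accessible region overlapped, from class I, class II, peptide processing and TNF genes, are given first to show where these modules lie, each 5′ to 3′ on the strand of the gene, from RefSeq (GRCm38.p6). The stretch for Psmb9-Tap1 is the whole sequence between the start sites of these divergently transcribed genes. Capitals mark matches on either strand to CCAAT (the Y box type, ATTGG on the other strand), GGGATTCCC (NF-kB type), TTTCNNTTT (interferon response type), TTCNNNGAA (STAT type) and ACTGATGA (a core of the X box). The last of these was chosen after the sequences had been seen. No match overlapped another, and Tnf held none. Only exact matches are marked. The stretch tttcacttc in H2-K1, H2-D1, H2-Q7 and H2-M3 differs from TTTCNNTTT in its last base and is therefore unmarked. An unmarked sequence is not shown to lack a site of that type. For H2-K1 the bases before the outer of its start sites in the promoter table are shown, and they lie within the extent that the gene table gives for H2-K1.
H2-K1 (chr17:34000348-34000597, - strand): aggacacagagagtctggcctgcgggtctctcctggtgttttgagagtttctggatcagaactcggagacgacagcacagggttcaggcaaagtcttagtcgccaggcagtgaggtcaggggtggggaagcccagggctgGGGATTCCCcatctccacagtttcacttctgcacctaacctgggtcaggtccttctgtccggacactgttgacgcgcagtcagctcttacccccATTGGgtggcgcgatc
H2-D1 (chr17:35262844-35263093, + strand): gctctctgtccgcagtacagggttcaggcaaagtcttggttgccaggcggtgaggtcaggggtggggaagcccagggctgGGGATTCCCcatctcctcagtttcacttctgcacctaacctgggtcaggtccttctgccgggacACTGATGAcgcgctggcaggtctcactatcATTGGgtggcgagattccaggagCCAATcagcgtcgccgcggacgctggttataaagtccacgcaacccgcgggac
H2-Q7 (chr17:35438905-35439154, + strand): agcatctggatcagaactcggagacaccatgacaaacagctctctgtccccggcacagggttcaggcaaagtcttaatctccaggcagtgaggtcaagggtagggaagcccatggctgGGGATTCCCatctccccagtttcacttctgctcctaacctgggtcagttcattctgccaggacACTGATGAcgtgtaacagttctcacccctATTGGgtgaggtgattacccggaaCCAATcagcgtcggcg
H2-T23 (chr17:36032702-36032951, - strand): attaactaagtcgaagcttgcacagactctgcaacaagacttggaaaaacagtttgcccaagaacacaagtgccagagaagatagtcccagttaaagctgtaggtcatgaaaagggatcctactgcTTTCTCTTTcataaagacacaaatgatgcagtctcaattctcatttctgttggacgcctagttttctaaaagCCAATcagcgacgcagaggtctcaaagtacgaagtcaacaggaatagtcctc
H2-M3 (chr17:37269984-37270233, + strand): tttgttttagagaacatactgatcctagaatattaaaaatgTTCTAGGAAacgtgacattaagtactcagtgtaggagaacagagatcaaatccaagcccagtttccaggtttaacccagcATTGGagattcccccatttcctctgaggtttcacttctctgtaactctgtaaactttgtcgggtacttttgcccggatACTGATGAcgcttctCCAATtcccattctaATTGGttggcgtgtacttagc
H2-Eb1 (chr17:34305617-34305866, + strand): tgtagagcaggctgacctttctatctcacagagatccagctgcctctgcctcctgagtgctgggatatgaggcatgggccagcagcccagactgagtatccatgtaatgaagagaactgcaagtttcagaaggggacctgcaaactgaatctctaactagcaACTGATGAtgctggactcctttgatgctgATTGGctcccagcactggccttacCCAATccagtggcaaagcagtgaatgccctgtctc
Psmb9-Tap1 (chr17:34187331-34187555, + strand): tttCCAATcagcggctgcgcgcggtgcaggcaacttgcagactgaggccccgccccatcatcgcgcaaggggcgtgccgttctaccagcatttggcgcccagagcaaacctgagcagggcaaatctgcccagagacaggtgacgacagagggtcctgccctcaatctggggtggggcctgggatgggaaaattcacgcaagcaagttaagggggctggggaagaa
Tnf (chr17:35202008-35202257, - strand): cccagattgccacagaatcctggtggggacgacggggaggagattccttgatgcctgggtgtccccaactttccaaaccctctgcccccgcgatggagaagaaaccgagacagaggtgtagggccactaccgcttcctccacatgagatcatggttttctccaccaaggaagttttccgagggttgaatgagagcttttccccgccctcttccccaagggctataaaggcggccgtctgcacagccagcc

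Accessible regions were dense in the first part of the interval and absent from its end. The interval held 82.8 regions per Mb, against 43.2 per Mb over the remainder of chromosome 17. Regions covered 206 kb, or 4.39% of the interval, against 2.21% of the remainder. From the first H2-K gene to the last H2-T gene the density was 135 per Mb. Protein-coding genes were dense as well, with 45.7 per Mb in the interval against 9.54 per Mb elsewhere on the chromosome, so that there were fewer regions per gene in the interval (1.81) than in the remainder (4.53). Chromosome 17 was also divided into tiles of the same length on either side. Of 17 such tiles, 16 had a lower density of regions than the interval and 17 had a lower density of genes. The tile with the highest density (88.5 regions per Mb) began 9.4 Mb before the interval. These are descriptions of a shared list of regions, and neighbouring regions are not independent.

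The interval was then divided at landmark genes into 8 segments. Regions were assigned by their centre. The region on the H2-D1 promoter, centred before the annotated gene, was therefore counted in the class III segment. The segment from H2-K2 to H2-Ea, with H2-K1 and the class II genes, was the densest at 195 regions per Mb (72 regions). It was followed by the segment from H2-D1 to H2-Q10 at 166 per Mb (35 regions) and the flank before H2-K2 at 132 per Mb (23 regions). The class III segment held 118 per Mb (108 regions), the stretch from Pou5f1 to Gnl1 117 per Mb (62 regions) and the H2-T segment 118 per Mb (22 regions). Density then dropped to 68.2 per Mb (61 regions) between H2-T3 and the first olfactory receptor gene, a segment with H2-M and Trim genes. The last segment, with the olfactory receptor genes, held 6 regions, or 4.24 per Mb. In windows of 100 kb, the count had a median of 9 and reached 22 in 3 windows, while 14 of the 47 windows held no region.

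**Figure D1:**
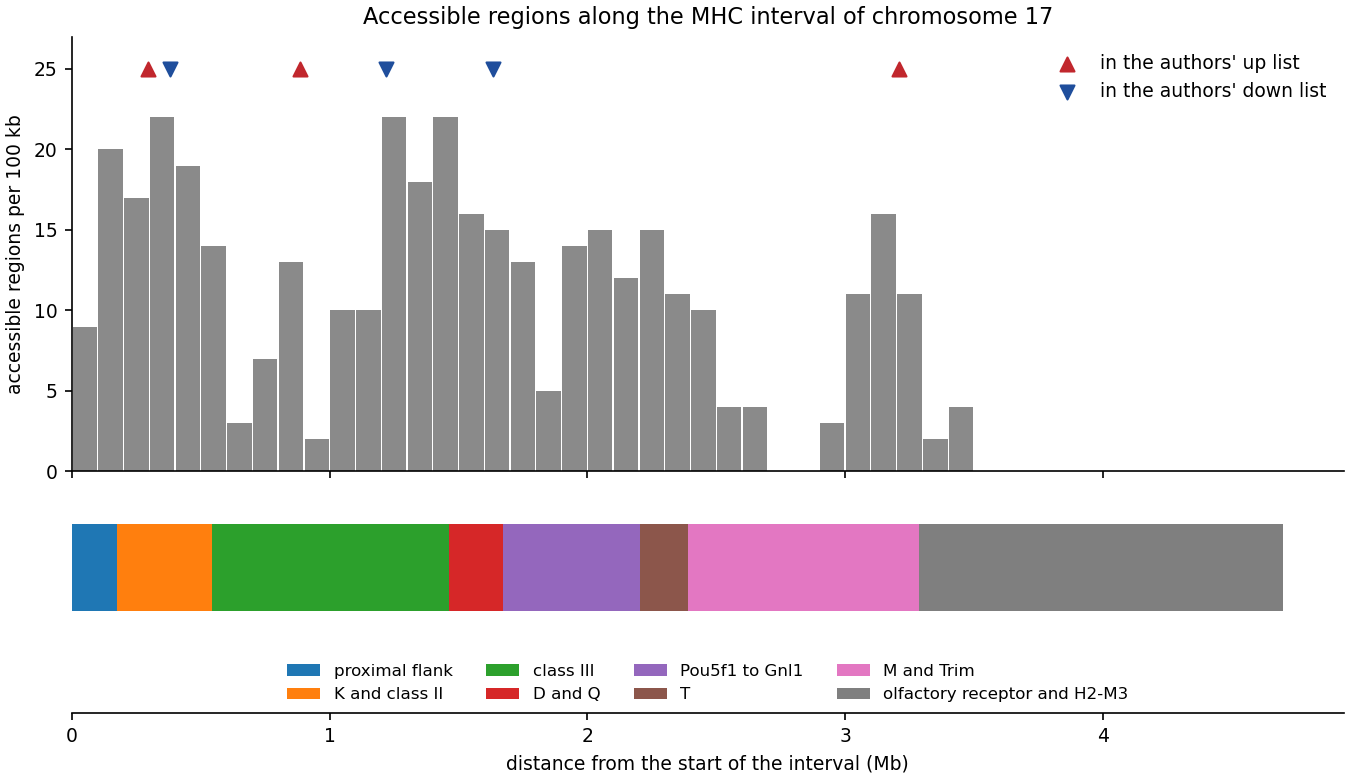
Number of accessible regions per 100 kb (bars, y axis) against distance from the start of the interval in Mb (x axis), with the 8 segments as coloured bands and the regions of the authors' up and down lists as triangles. Counts reach 22 per 100 kb in 1 window of the class II segment, in 1 of the class III segment and in 1 that spans the border of the class III and D segments, and are 0 beyond H2-M3, and 6 regions are listed in all.

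The last region of the interval lay on H2-M3, a class I gene whose product presents formylated bacterial peptides. This region, chr17:37269855-37271230, was 1376 bp wide and covered all 250 bases printed for H2-M3. No further region followed for 3.49 Mb, up to position 40763671. This was the longest of the 4149 gaps between regions on chromosome 17 and the 42nd longest of 91245 in all, and 1229 kb of it lay in the interval. It contained 57 protein-coding genes, of which 37 were olfactory receptor genes, which serve smell and are silent in most other cell types. The next gap of the interval, 332 kb from 36432072 to 36764355, contained H2-M10.4, H2-M11, H2-M9 and H2-M1. A gap of 123 kb in the class III segment, from 34713303 to 34836435, contained the complement gene C4b and the steroid hydroxylase gene Cyp21a1. C4b and its neighbour C4a are near-identical copies, as are several class I genes, and reads from such copies cannot always be placed. Whether this bears on the gaps was not tested.

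At the level of promoters, a region overlapped the window of 107 of 209 genes of the interval in the RefSeq promoter table (51.2%, 95% Wilson interval 44.5 to 57.9%). On the remainder of chromosome 17 this was so for 527 of 1076 genes (49%, 46 to 52%). Without olfactory receptor genes the share in the interval was 61.5% (54.1 to 68.4%), and that of the remainder stayed at 49%. Intervals cover counting error only. The share was 94.1% of 17 genes in the flank before H2-K2 and 77.3% of 22 genes in the class II segment. It was 60% of 55 class III genes, 55.6% of 9 genes in the D and Q segment, 65.5% of 29 genes from Pou5f1 to Gnl1 and 60% of 10 genes in the H2-T segment. It was 37% of 27 genes in the segment of H2-M and Trim genes and 2.5% of 40 genes in the olfactory receptor segment. Windows with a region had a median GC content of 58.4% over the 250 bases before the start site, those without one 47.2%, and those of olfactory receptor genes 35.6%. Without olfactory receptor genes, the median of windows lacking a region was 50.4%. On the remainder of the chromosome the medians were 60% with a region and 48.8% without one. The part of base composition in the presence of a region was not tested.

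**Figure D2:**
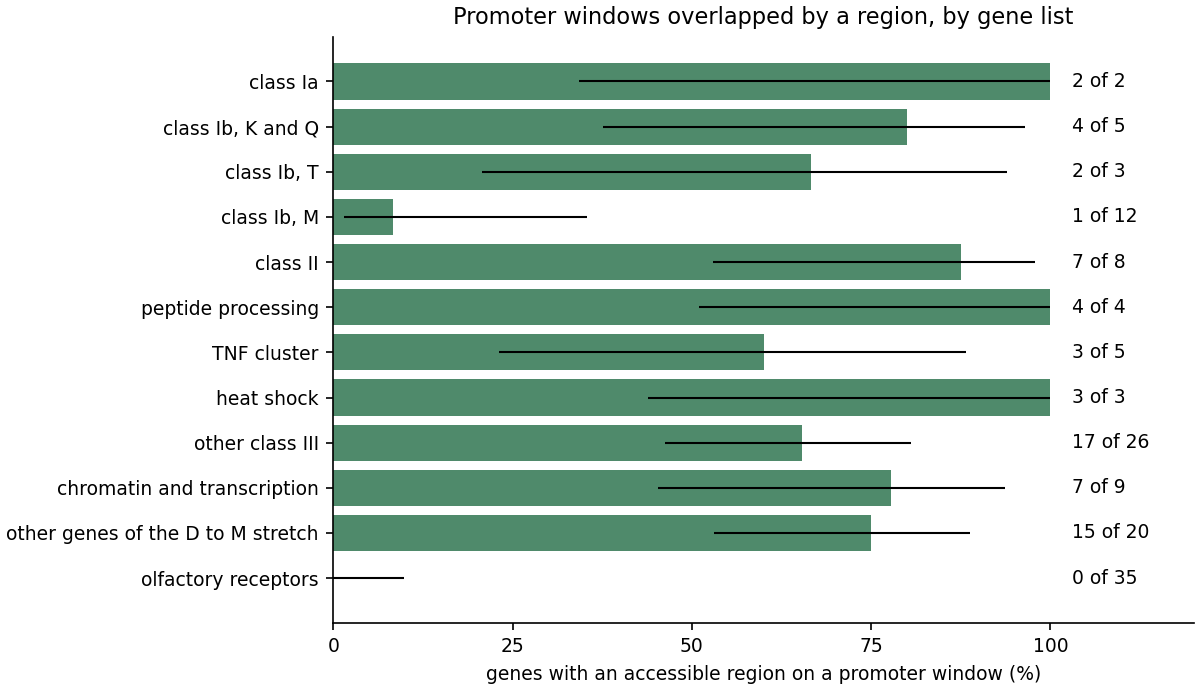
Share of genes (x axis, %) of each gene list (y axis) with an accessible region on at least 1 promoter window, with the numbers of genes at the right and 95% Wilson intervals as lines. Both classical class I genes and 7 of 8 class II genes have such a region, against 1 of 12 H2-M genes and 0 of 35 olfactory receptor genes.

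Both classical class I promoters were accessible. The H2-K1 region, chr17:34000113-34000770, was 658 bp wide, and the H2-D1 region, chr17:35262582-35263258, was 677 bp wide. Each covered all 250 bases printed. In both sequences the palindrome GGGATTCCC and at least 1 CCAAT match lay in the covered bases, at -110 to -102 and -16 to -12 for H2-K1 and at -170 to -162 and -53 to -49 for H2-D1, counted from the base before the start site as -1. An ACTGATGA match was present in H2-D1 (-106 to -99) and not in the H2-K1 window. The printed H2-K1 bases held actgttga, which differs from it in 1 base and was not counted as a match. Neither region was in the up or the down list, nor was any other region within 1 kb of either gene.

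Among the non-classical genes of the K and Q group, the promoter windows of H2-Q2, H2-Q4, H2-Q6 and H2-Q7 were overlapped, by regions of 1124, 658, 455 and 717 bp. The window of H2-Q10, whose secreted product is made mainly in the liver, was not overlapped, and the nearest region lay 707 bp from the gene. The 250 bases of H2-Q10 were 80.4% identical to those of H2-D1 in a global alignment, and H2-Q6 and H2-D1 were 82% identical. The 21 pairs among the 7 K, D and Q promoters ranged from 48.5% to 82%. The windows were aligned end to end from annotated start sites, which did not lie at matching places. GGGATTCCC lay at -110 to -102 in H2-K1, -170 to -162 in H2-D1 and -132 to -124 in H2-Q7. The identities thus depend also on the placement of start sites and are no measure of divergence alone. H2-Q6 and H2-Q7 held both GGGATTCCC and ACTGATGA, and H2-Q4 held ACTGATGA only. Neither was present in H2-Q10, which had no region on its window, nor in H2-Q2, which had the widest region of the group. H2-Q1 and the pseudogenes H2-K2, H2-Q3 and H2-Q5 had no promoter window in the table, and each had between 1 and 3 regions within 1 kb. H2-Q8 and H2-Q9 are placed outside the reference chromosome in the gene table and were not analysed here.

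In the H2-T group, H2-T23 and H2-T22 had accessible promoters and H2-T3, known from the intestinal epithelium, had none, its nearest region being 3409 bp away. H2-T24 and the pseudogenes H2-T10 and H2-Bl had no window and 1 or 2 regions within 1 kb each, and H2-T7 and H2-T9 were not analysed here. The H2-T23 region, chr17:36032416-36032941, was 526 bp wide and covered 240 of the 250 bases printed. These held a TTTCNNTTT match at -124 to -116 and a CCAAT match at -52 to -48. The H2-T22 region was 634 bp wide and was shared with the promoter window of Gm6034.

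The H2-M group contrasted with the other class I genes. H2-M3 was the only one of its 12 genes with a region on a promoter window, and 10 of the 12 had no region within 1 kb. H2-M5 had 4 regions within 1 kb, none on its promoter window. The 6 H2-M10 genes, known from the vomeronasal organ, had no region within 1 kb, and their nearest regions were 6954 to 26846 bp away. Their promoters were 75.3% to 88.8% identical to each other and 46.2% to 53.7% identical to those of K, D and Q genes. H2-M3 was 45.8% to 55.8% identical to the K, D and Q promoters, near the 46.2% to 53.7% of the H2-M10 promoters. These identities also depend on where the start sites are annotated. H2-M3 held ACTGATGA at -51 to -44 with CCAAT matches at -36 to -32 and -21 to -17, and a TTCNNNGAA match at -209 to -201.

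Class II promoters were also accessible, in 7 of the 8 genes with a window. The exception was H2-DMb2, whose start site in the promoter table lies inside the annotated gene. A region of 461 bp, chr17:34142957-34143417, overlapped the annotated 5′ end of H2-DMb2, 1832 bp from that start site. Among the antigen-presenting chains, the regions were 329 bp wide on H2-Aa, 302 bp on H2-Eb1 and 194 bp on H2-Eb2. H2-Ab1 had no window in the table, and a region of 644 bp, chr17:34262990-34263633, overlapped an end of the annotated gene. The regions on H2-Oa, H2-Ob and H2-DMb1, whose products regulate or catalyse peptide loading, were 715, 551 and 619 bp wide. H2-DMa shared a region of 934 bp with Brd2, which encodes a bromodomain protein. The H2-Eb1 region covered 217 of the 250 bases printed, with ACTGATGA at -88 to -81 and CCAAT matches at -59 to -55 and -35 to -31. Pax5 and Cd79a, the B cell marker genes with a promoter window, had no region on it. A region shows that chromatin was called open in these samples and is no measure of expression.

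All 4 genes of peptide processing with a window had an accessible promoter. A single region of 1015 bp, chr17:34186896-34187910, covered the whole stretch of 225 bases between the start sites of Psmb9, an immunoproteasome subunit, and Tap1, a subunit of the peptide transporter. A region of 1287 bp lay on the promoter of Psmb8, another immunoproteasome subunit, and a region of 446 bp on that of Tapbp, the tapasin gene. Tap2 had no window and 5 regions within 1 kb. Shared regions of this kind were not particular to Psmb9 and Tap1: of the 92 regions that overlapped a promoter window, 18 (19.6%) overlapped windows of 2 genes, against 71 of 484 (14.7%) with 2 or more genes on the remainder of the chromosome.

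In the class III segment, the promoter of Tnf, which encodes tumour necrosis factor, carried a region of 387 bp that covered all 250 bases printed, that of Ltb (lymphotoxin beta) a region of 914 bp and that of Nfkbil1 a region of 1030 bp. The windows of Lta and Aif1 were not overlapped, although each gene had 2 regions within 1 kb. All 3 heat shock genes had an accessible promoter, with 1 region of 936 bp shared by Hspa1a and Hspa1l and a region of 908 bp on Hspa1b. None of the complement genes had a window. C2 and Cfb each had 2 regions within 1 kb, and C4a and C4b had none within 12976 and 14837 bp. Of 26 other class III genes with a window, 17 had an accessible promoter. Among genes of chromatin and transcription, 7 of 9 did, and the exceptions were Ehmt2, a histone methyltransferase gene, and Pou5f1, a pluripotency factor gene.

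The sequence matches were counted over all windows for reference. GGGATTCCC occurred in 6 of the 132 windows of the interval with a region (4.55%) and in 0 of the 126 without one, against 0.301% of all 32851 promoter windows. The 6 windows belonged to 5 genes, H2-K1, H2-D1, H2-Q6, H2-Q7 and Gtf2h4, which encodes a transcription factor subunit. ACTGATGA occurred in 10 windows with a region (7.58%) and 1 without (0.794%), against 0.843% of all windows. Because it was picked from printed promoters that all had a region, H2-D1, H2-Q7, H2-M3 and H2-Eb1 among them, an excess in windows with a region is partly built in, and nothing is read from it. Its 11 genes were H2-D1, H2-Q4, H2-Q6, H2-Q7, H2-M2, H2-M3, H2-Eb1, H2-DMb1, BC051142, Nfkbil1 and Atp6v1g2, and only H2-M2 had no region on the window. CCAAT was common everywhere, in 44.7% of windows with a region, 37.3% of those without and 33.8% of all. TTCNNNGAA occurred in 5.3% of windows with a region and 14.3% without, against 7.02% of all, and TTTCNNTTT in 6.06% and 15.9%, against 9.37% of all. Only exact matches were counted, so the tttcacttc of H2-K1, H2-D1, H2-Q7 and H2-M3 is not among those to TTTCNNTTT. Several of these genes are related copies, so their matches are not independent, and a match is a description of letters and not of a bound site.

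The median width was 446 bp (95% order-statistic interval 387 to 479 bp, quartiles 268 and 717 bp), against 407 bp (394 to 420 bp, quartiles 253 and 668 bp), and the intervals overlapped. The median of the interval was above that of 15 of the 17 other tiles, which ranged from 303 to 491 bp. Regions on a promoter window were wide, with a median of 826 bp for 92 regions, against 366 bp for the 297 others. The corresponding medians on the remainder of the chromosome were 964 and 364 bp. Regions on a promoter window made up 23.7% of the interval's regions (19.7 to 28.1%), against 12.9% on the remainder (11.8 to 14%). The share within 1000 bp of either end of a protein-coding gene was 36% (31.4 to 40.9%), against 17.6% (16.4 to 18.8%). The widest region, of 1757 bp at chr17:35978762-35980518, lay on the promoters of Gnl1 and Prr3. It was followed by 1697 bp on the promoter of Ddx39b, an RNA helicase gene, and by 1686 bp on that of D17H6S56E-5.

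**Figure D3:**
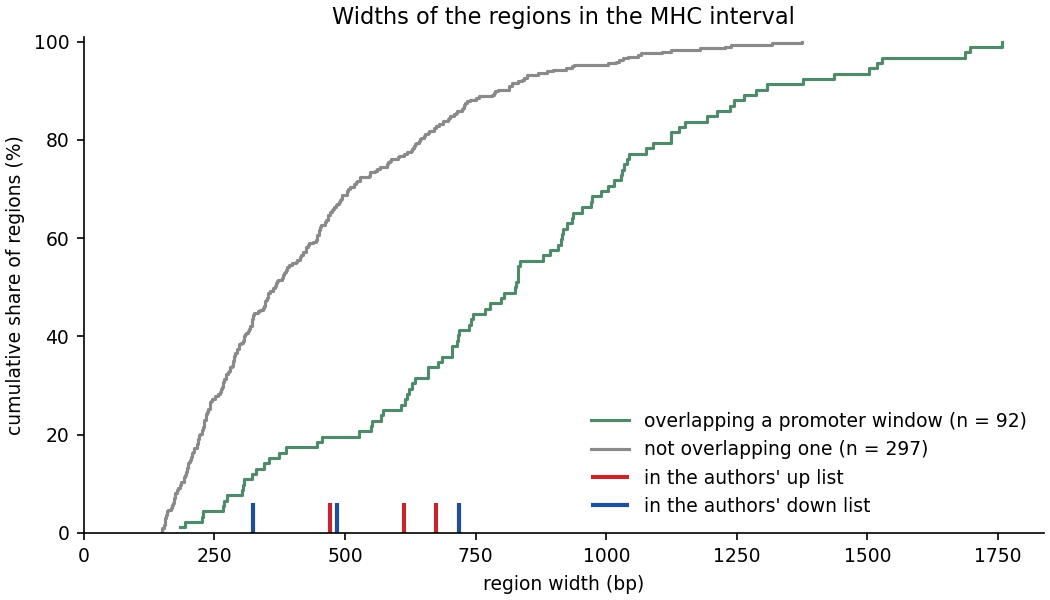
Cumulative share (y axis, %) of the regions of the interval by width in bp (x axis), for the 92 regions that overlap a promoter window and the 297 that do not, with ticks at the widths of the listed regions. The medians are 826 and 366 bp, and the 6 listed regions lie between 323 and 719 bp.

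Few regions of the interval were in the authors' lists. Of the 389 regions, 3 were up (0.771%, 95% Wilson interval 0.263 to 2.24%) and 3 were down (0.771%, 0.263 to 2.24%). On the remainder of chromosome 17, 124 regions (3.30%) were up and 57 (1.52%) were down, and over all chromosomes the shares were 4.21% up and 1.40% down. In total 6 regions of the interval were listed (1.54%, 0.709 to 3.32%), against 4.81% on the remainder of the chromosome (4.17 to 5.54%) and 5.61% of all regions. The interval of the up share and that of the listed share did not overlap those of the remainder, whereas for down regions they did. At the shares of the remainder of the chromosome in each of 10 width classes, 12.6 up and 6.12 down regions would have been listed, and at its shares by width class and nearness to a gene end together, 10.9 up and 5.56 down. The small number of listed regions sets a wide counting error, and no test over samples was possible.

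The lower share was found away from gene ends. Within 1000 bp of a gene end, 2 of 140 regions of the interval (1.43%) and 10 of 661 on the remainder of the chromosome (1.51%) were listed. Farther away, 4 of 249 (1.61%, 0.626 to 4.06%) were listed in the interval, against 171 of 3100 (5.52%, 4.77 to 6.38%). Whether the interval differed from the remainder more strongly away from gene ends than near them was not tested. Of the 17 other tiles of the chromosome, 2 had a lower listed share, both with 0 listed regions among 31 and 12 regions. The 3 other tiles with more than 70 regions per Mb had listed shares of 2.59%, 2.64% and 3.84%, below the median of 4.4% over the 17 tiles.

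**Figure D4:**
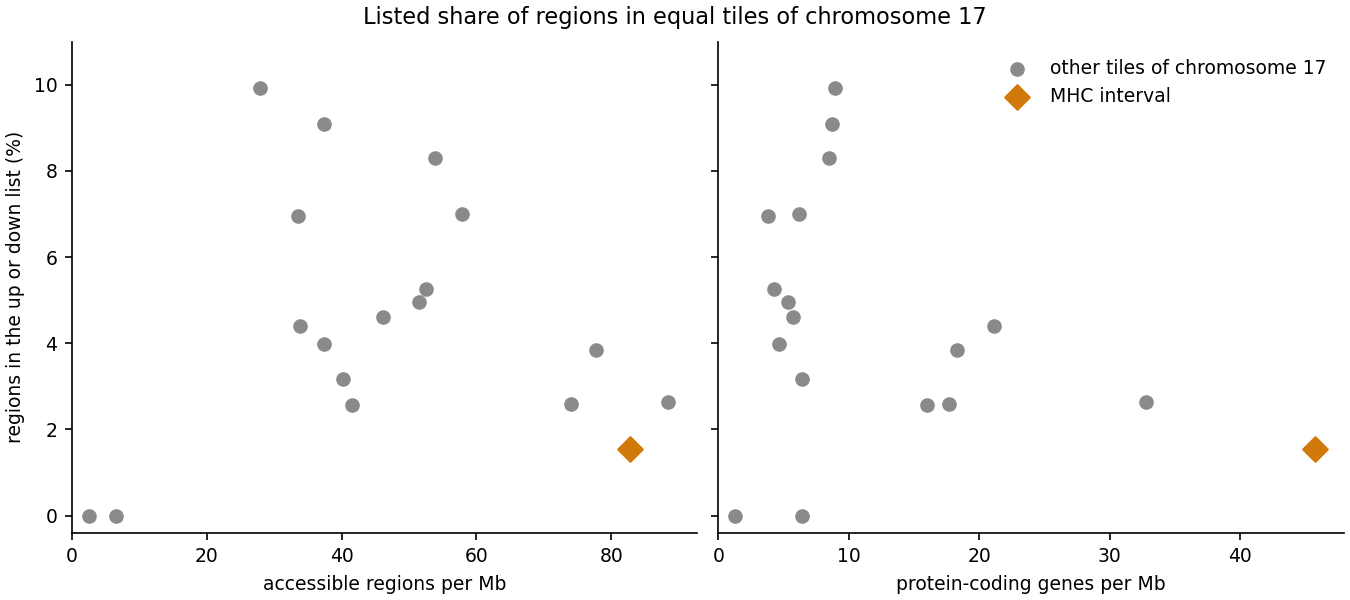
Share of regions in the up or down list (y axis, %) against regions per Mb (left) and protein-coding genes per Mb (right) in the interval (diamond) and in 17 other tiles of the same length on chromosome 17 (circles). The interval has the highest gene density, 45.7 per Mb, and a listed share of 1.54%.

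The 6 listed regions were scattered, with 1 or no listed region per 100 kb window. In the class II segment an up region of 471 bp, chr17:34096549-34097019, lay 1315 bp beyond the 3′ end of H2-Oa, the alpha chain of a modulator of peptide loading, and 1240 bp from the start site of BC051537. A down region of 484 bp, chr17:34179841-34180324, lay 82.8 kb further on, 1706 bp beyond the 3′ end of Psmb9 and 7006 bp from the Psmb9 start site. Neither touched a promoter window. The regions on the promoters of H2-Oa and of Psmb9-Tap1 themselves were in neither list.

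In the class III segment, an up region of 612 bp, chr17:34685665-34686276, lay inside Tnxb, the gene of the matrix protein tenascin-X, 25212 bp from the annotated 5′ end and 15130 bp from the start site in the promoter table, which lies inside the gene. A down region of 719 bp, chr17:35016424-35017142, was the only listed region that overlapped a promoter window, that of Vwa7, and it covered 155 of the 250 bases before that start site. Those 250 bases had a GC content of 68.4% and held no match to any of the motifs. The annotated Vwa7 gene begins further upstream, so that the region lay 64 bp inside it. The region also lay within 1 kb of Vars, which encodes the valine tRNA ligase.

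A down region of 323 bp, chr17:35432101-35432423, lay between H2-Q6 and H2-Q7, 2046 bp from the end of H2-Q6 and 6732 bp from the start site of H2-Q7. It was the only listed region whose nearest gene was a class I gene, and it was 385 bp from the region before it. The last, an up region of 675 bp at chr17:37009337-37010011, lay within Zfp57, a zinc finger gene known from genomic imprinting, 718 bp from the gene's 3′ end and 729 bp from the 3′ end of Mog, a myelin gene. No other listed region was present within 20 kb of the centre of any of the 6, among 4 to 10 regions counted there including the listed one. Of the 5 consecutive pairs of listed regions, 1 was in the same list, and the pairs were 82.8 to 1577 kb apart.

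**Figure D5:**
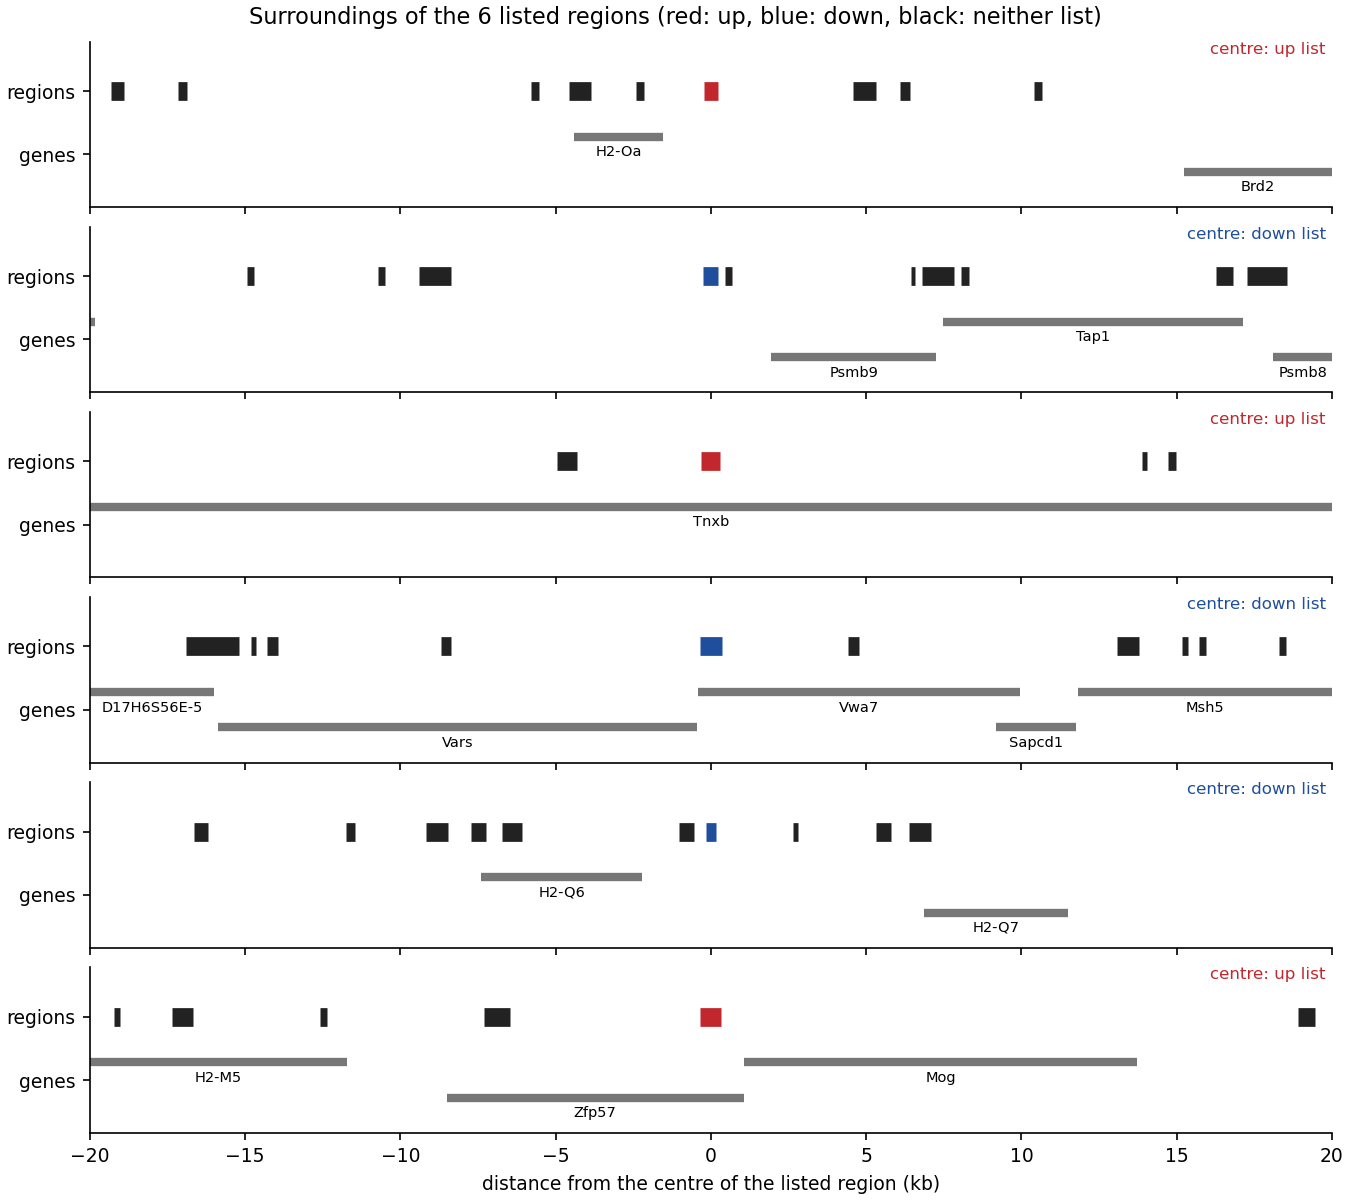
Regions (upper blocks) and protein-coding genes (grey lines, short ones unnamed) within 20 kb of the centre of each of the 6 listed regions, against distance in kb. In each row the listed region is the only coloured block, and only the region at Vwa7 touches a promoter window.

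By gene list, 0 regions within 1 kb of the 2 classical class I genes, the 27 non-classical class I genes found in the interval, the 10 class II genes, the 5 genes of peptide processing, the 6 genes of the TNF cluster, the 4 complement genes and the 3 heat shock genes were listed. Listed regions within 1 kb of a gene of the lists were limited to Tnxb and Vars among other class III genes and to Zfp57 and Mog, which shared 1 region, among the genes from D to M. The lists with 0 listed regions named above had 3 to 25 regions each within 1 kb of their genes. Beside the listed shares of 5.61% over all regions and 4.81% on the remainder of chromosome 17, lists of this size cannot show a lower share.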

How the data were processed

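ATAC-seq was performed on 4 samples, 2 per IL-15 dose, grouped by the dose in their titles. The authors deposited, for the series as a whole, a list of regions with positions and widths and an up and a down list with positions only. The submitters' processing notes name BWA, ArchR, MACS2 and HOMER 4.11.1 and build mm10, with no roles. The peak calling settings, any pooling of samples, the differential test and its threshold are not given in the sources used here. Depth is therefore unknown, and the planned test of the doses was not possible.

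Starts were raised by 1 to be 1-based, and each listed region was identical to a region of the full list. The members and gene lists were chosen with earlier results of these data known. The regions and genes named are all listed regions, the widest, the emptiest and densest windows and the genes of the fixed lists, with the promoters of H2-K1, H2-D1, H2-Q7, H2-T23, H2-M3, Psmb9, Tap1, H2-Eb1 and Tnf printed (H2-Ab1 had no entry). Others, such as Gtf2h4, BC051142 and BC051537 (a lncRNA), were named after their values were seen. Gene positions came from RefSeq (GRCm38.p6), where 402 rows on patch or unplaced sequences or the mitochondrial genome were left out, and promoter sequences from the RefSeq promoter table. Shares carry 95% Wilson intervals and medians 95% order-statistic intervals. No test of the interval against other regions was run. Python 3.11.15, pandas 2.3.3, scipy 1.17.1 and biopython 1.88 were used, and overlaps were tested on simulated data.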

Additional observations from a re-analysis of the deposited data

How the results depend on the processing

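No paired analysis was possible because the files analysed here give positions and widths, with nothing measured per replicate. For the same reason no replicate could be left out. Of 35 alternatives for 8 results, 10 moved the value beyond its 95% interval or, where it has none, by over 1.5 times, and 25 did not. Density rose from 82.8 to 135 per Mb when the interval was limited to the first H2-K to the last H2-T gene, and also to 135 per Mb without the part beyond the last H2-T gene. Both settings drop the sparser segments of H2-M and Trim genes (61 regions, 68.2 per Mb) and of olfactory receptor genes (6 regions, 4.24 per Mb). The median width was 483 bp for regions of at least 200 bp. The share near gene ends was 24.2% within 100 bp, 59.6% within 3000 bp and 45.8% with genes of any biotype. Weighting the remainder of chromosome 17 to the widths of the interval gave 3.25% up and 4.83% listed, and weighting to widths and gene ends together gave 2.8% and 4.23%, against 0.771% and 1.54% observed. For the down list the same weightings gave 1.57% and 1.43% against 0.771% observed, which lay within its wide interval of 0.263 to 2.24%. The cause was not tested. The alternatives for the listed share, for widths and gene ends together and for promoter windows were chosen after the data were seen.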

Other observations

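The interval contained 9 miRNA hairpins of the RefSeq table, of which 5 were overlapped by an accessible region. No share of hairpins outside the interval is given here, so nothing is read from this count. Over all chromosomes, 3 of 944 olfactory receptor genes with a promoter window (0.318%, 95% Wilson interval 0.108 to 0.93%) had a region on it, against 43.4% of all 27025 genes of the table.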
